A study of Mus musculus with 18 samples.

Results

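The Hox genes of the 4 mouse Hox clusters were examined in embryoid bodies in which the transcription factor Msgn1 was switched on. A gene belonged to the set when at least 1 probe set, the group of short probes that reads a transcript on an Affymetrix array, was annotated to that Hox gene and to no other. Of the 39 Hox genes that RefSeq lists, 33 met this rule, among 18193 genes with such a probe set. For a gene with several probe sets the brightest over all 18 arrays was used, as was needed for 11 of the 33. The members were 9 genes of cluster a, 9 of cluster b, 7 of cluster c and 8 of cluster d. The other 6 were not analysed here as single genes.

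Hox genes encode homeodomain transcription factors that give cells of the embryo a position along the head to tail axis. They lie in clusters, and genes at one end of a cluster (low paralogue numbers) are in general switched on earlier and further towards the head than those at the other end. In the mouse embryo this opening of the clusters starts in the primitive streak and the mesoderm that leaves it, under the influence of Wnt and Fgf signals, Cdx factors and retinoic acid. Here the members were grouped as anterior (paralogues 1 to 3, 7 genes), central (4 to 8, 12 genes) and posterior (9 to 13, 14 genes).

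All 6 groups were embryoid bodies, clumps of differentiating embryonic stem cells grown in suspension, made from the A2lox-Flag Msgn1 line of strain 129P2. That line carries a Flag-tagged Msgn1, a basic helix-loop-helix factor of the presomitic mesoderm, in a cassette that doxycycline induces. Induction was with doxycycline at 1 µg/ml from day 2 onwards. RNA was taken 12, 24 and 48 h after that point from induced cultures and from uninduced controls, with 3 arrays per group that the labels call biological replicates. Nothing in the labels says whether the replicates came from separate days or cultures, so p-values measure the spread between these samples. The cells had grown on feeder fibroblasts before differentiation. No group received doxycycline without the cassette, so effects of the drug and of Msgn1 cannot be told apart, and the number of clones is not given in the sources used here.

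The arrays were scaled alike, with a 2% trimmed mean of 150 on each and medians between 18.8 and 22.1. The correlation between replicate arrays was 0.990 to 0.994 for log2 values. Msgn1 itself read 15.0 to 25.2 in uninduced arrays at 12 h and 64.7 to 76.8 in induced ones, and at 48 h it read 4.69 to 8.68 against 44.5 to 56.3. Every induced array lay above every uninduced one of its time. Whether this probe set reads the cassette, the endogenous gene or both is not given in the sources used here.

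Promoter sequence is shown for Hoxb1 and Hoxd1, the paralogue 1 genes that rose after induction and have an entry in the RefSeq promoter table (build GRCm38.p6). Each run is the 250 bases before the annotated start, on the plus strand, at chr11:96365508-96365757 for Hoxb1 and chr2:74762730-74762979 for Hoxd1. Capitals mark CANNTG, the E-box letters that basic helix-loop-helix factors as a class can bind, which read alike on both strands.
Hoxb1: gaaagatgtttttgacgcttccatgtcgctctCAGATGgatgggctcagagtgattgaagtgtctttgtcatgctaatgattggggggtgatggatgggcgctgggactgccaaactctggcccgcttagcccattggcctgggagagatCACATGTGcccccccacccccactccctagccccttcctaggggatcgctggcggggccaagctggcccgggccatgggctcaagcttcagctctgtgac
Hoxd1: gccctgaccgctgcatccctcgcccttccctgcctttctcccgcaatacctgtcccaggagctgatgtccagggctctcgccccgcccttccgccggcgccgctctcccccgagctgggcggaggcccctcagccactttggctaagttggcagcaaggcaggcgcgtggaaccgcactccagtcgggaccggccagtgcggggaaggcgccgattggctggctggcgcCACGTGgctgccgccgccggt

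The Hoxb1 window held CANNTG at 3 places, 218, 100 and 98 bases before the start, of which the last 2 overlap. The Hoxd1 window held it once, 21 bases before the start. These letters are common: 15 of 21 windows of 19 member genes held them (71.4%), beside 66.2% of 32851 promoter windows of the same length. AGGTCA, the half-site letters of retinoic acid receptors, was searched on both strands and occurred in 5 of the 21 windows (23.8%), beside 14.0% of all windows. TTTATNG, letters that Cdx factors can bind, occurred in 0 of the 21 and in 9.81% of all windows. Other forms of Cdx letters were not searched. The table gave no entry for Hoxb2 or Hoxb3. A match is a description of the sequence and not a measured binding site.

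Signals of the Hox genes were low. A gene was tested when its mean of log2(signal + 32) in at least 1 group reached that of a signal of 13.3, the 40th percentile of all values, and 18 of the 33 members did so. The other 15 lay under this level in every group, with group means from 1.10 (Hoxd10) to 12.9 (Hoxc9): Hoxa2, Hoxa4, Hoxa10, Hoxa13, Hoxb5, Hoxb7, Hoxb13, Hoxc5, Hoxc9, Hoxc10, Hoxc13, Hoxd3, Hoxd10, Hoxd11 and Hoxd12. The tested members were 5 of 7 anterior, 8 of 12 central and 5 of 14 posterior genes. The number of members above the level was 13, 16 and 11 in uninduced arrays at 12, 24 and 48 h and 14, 12 and 15 in induced arrays. Hoxb6 and Hoxc4 passed only through the induced 48 h group, so they had to be high there, and their changes at 48 h are a description that the test does not support.

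Differences below are of the group means of log2(signal + 32), with the standard error of a limma fit over all 14273 tested genes, and a gene was called at a Benjamini-Hochberg adjusted p under 0.05. The added 32 holds down the changes of dim genes, so these differences understate the change in signal. Levels of different genes are not compared, since each is read by its own probes.

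After induction Hoxb1, Hoxb2 and Hoxb3 rose, with Hoxb3 called at 12 h and all 3 at 24 and 48 h. Hoxd1 joined them at 48 h. The fit also called Hoxc4 at 48 h, but the induced 48 h group alone admitted it, so that call is a description. No Hox gene was called lower at any of the 3 times, where 0.182%, 0.995% and 5.56% of all genes were. At an unadjusted p under 0.05 the fits held 3, 7 and 7 Hox genes of either direction at 12, 24 and 48 h. In cluster b on chromosome 11, Hoxb1, Hoxb2 and Hoxb3 lie at one end, Hoxb1 last, and the annotated span of Hoxb4 lies within that of Hoxb3. Hoxd1 and Hoxc4 are likewise the end genes of their clusters on chromosomes 2 and 15. In the map of changes by cluster and paralogue number the called genes other than Hoxc4 are all in paralogues 1 to 3.

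**Figure D1:**
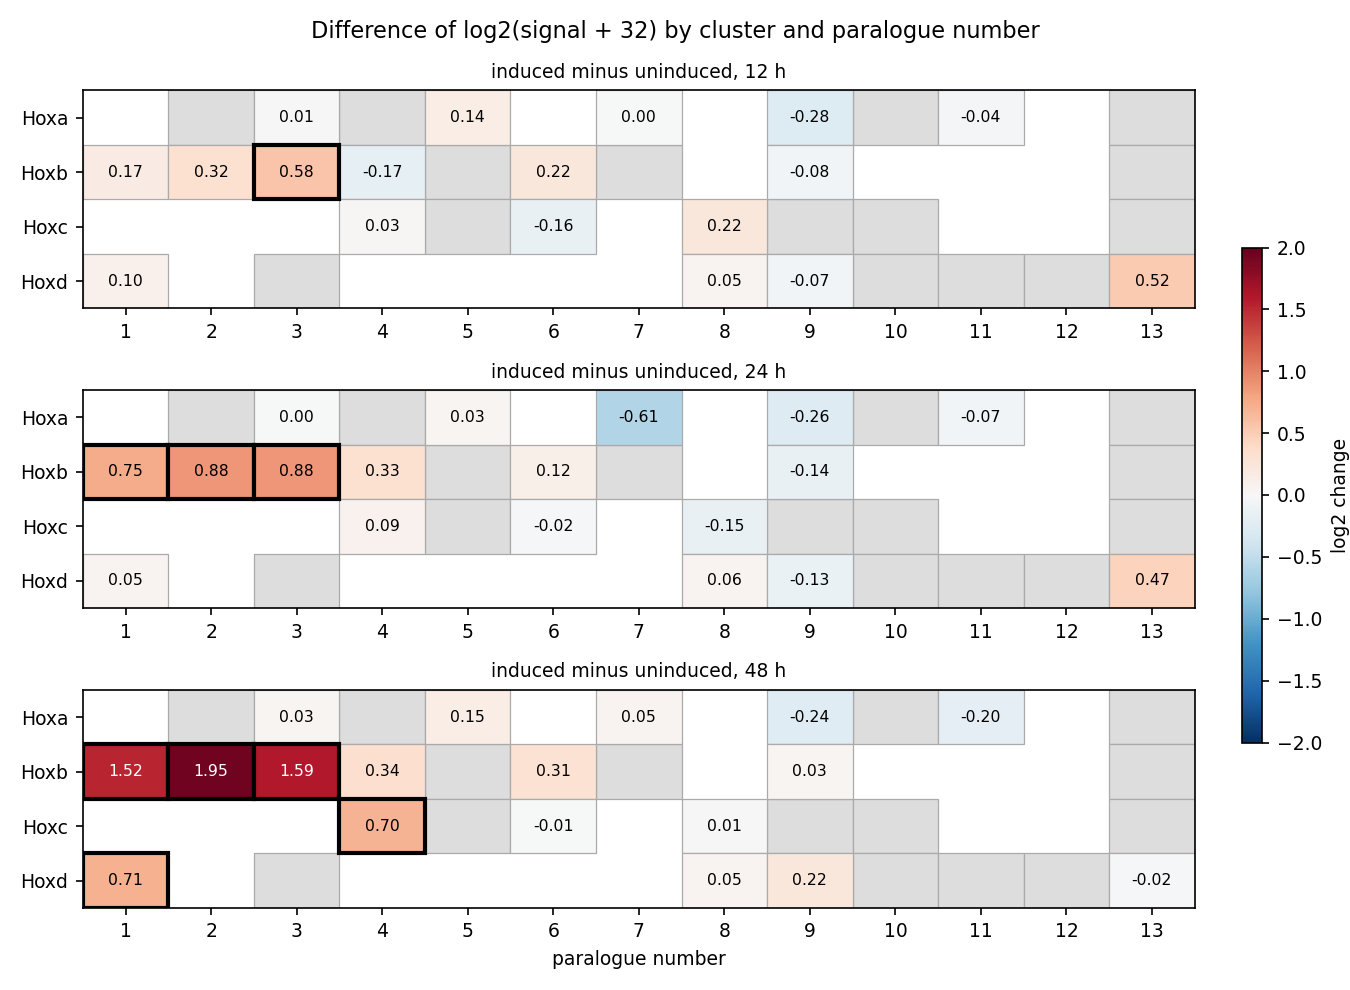
Difference of log2(signal + 32), induced minus uninduced, for each Hox gene by cluster (rows) and paralogue number (columns) at 12, 24 and 48 h. Thick frames mark called genes, grey cells are members under the signal level for testing, and white cells have no member. At 48 h the framed cells are Hoxb1 (1.52), Hoxb2 (1.95), Hoxb3 (1.59), Hoxc4 (0.70) and Hoxd1 (0.71). Hoxc4 was tested only because it was high in the induced 48 h group, so its frame is no support for a rise.

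Counts by position were read against all genes. At 12 h 1 of the 18 tested Hox genes was called higher, with 0.897% of all tested genes called higher and 1.08% called in either direction. At 24 h 3 were called higher, where 2.91% of all genes were called higher and 3.91% in either direction. At 48 h 5 were called higher, or 4 without Hoxc4, which was tested only because it was high in that group, where 6.86% of all genes were called higher and 12.4% in either direction. By position, 4 of 5 anterior genes, 1 of 8 central (Hoxc4) and 0 of 5 posterior genes were called higher at 48 h. The median change of the 5 anterior genes was 0.17, 0.75 and 1.52 at 12, 24 and 48 h, that of the 8 central genes 0.04, 0.05 and 0.10, and that of the 5 posterior genes -0.07, -0.13 and -0.02. Over all genes the median was 0.00, 0.01 and 0.01. The central genes include Hoxb6 and Hoxc4, which only the induced 48 h group admitted. The filter thus favoured a higher central median at 48 h, and that value is a description.

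Hoxb1, the paralogue 1 gene of cluster b and known for its part in hindbrain segment identity, read 9.39, 20.6 and 10.3 in the uninduced arrays at 12 h and 19.2, 20.2 and 17.1 in the induced ones. At 24 h it read 15.6, 11.1 and 16.9 uninduced and 38.8, 53.2 and 46.3 induced. At 48 h the values were 24.7, 34.0 and 28.4 against 168, 117 and 147. The groups overlapped at 12 h and were apart at 24 and 48 h, with induced arrays on the high side. The difference was 0.17 ± 0.122 at 12 h (adjusted p = 0.674), 0.75 ± 0.122 at 24 h (adjusted p = 6.45e-04) and 1.52 ± 0.122 at 48 h (adjusted p = 1.08e-08).

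Hoxb2, also a hindbrain patterning gene, read 29.6, 4.01 and 23.9 uninduced and 27.6, 22.6 and 42.9 induced at 12 h. At 24 h the uninduced arrays gave 25.0, 17.4 and 31.3 and the induced arrays 68.0, 88.5 and 60.3. At 48 h they gave 19.4, 25.8 and 19.4 against 189, 143 and 197. The 12 h groups overlapped, one uninduced array being far below its 2 partners, and the later groups did not. Differences were 0.32 ± 0.170 (adjusted p = 0.505), 0.88 ± 0.170 (adjusted p = 0.00316) and 1.95 ± 0.170 (adjusted p = 3.19e-08) at 12, 24 and 48 h.

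Hoxb3, the neighbouring paralogue 3 gene, was the one Hox gene called at 12 h, where it read 16.2, 25.3 and 16.9 uninduced and 42.3, 41.2 and 50.4 induced. At 24 h the values were 30.4, 25.3 and 10.8 against 60.7, 63.8 and 76.6. At 48 h they were 21.9, 19.1 and 22.5 against 143, 122 and 122. All induced arrays lay above all uninduced arrays at each of the 3 times. The difference was 0.58 ± 0.125 at 12 h (adjusted p = 0.0209), 0.88 ± 0.125 at 24 h (adjusted p = 1.12e-04) and 1.59 ± 0.125 at 48 h (adjusted p = 6.91e-09). The 12 h call was lost when any of the 3 induced arrays, uninduced array 1 or uninduced array 3 was left out, with an adjusted p of up to 0.108. It also rests on 1 probe set: the second one for Hoxb3 differed by -0.18 at 12 h and 0.31 at 24 h, and was called at 48 h with 0.88. At 12 h that second probe set had means of 8.79 uninduced and 3.11 induced. Both are under the level for testing, so it cannot decide the 12 h change. Its uninduced means of 5.59 at 24 h and 3.04 at 48 h were under that level too. Only the induced 24 and 48 h groups could admit it, so its call at 48 h is a description.

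Hoxb4, whose annotation lies within that of Hoxb3, was not called at any of the 3 times. It read 21.9, 9.16 and 18.8 uninduced and 23.1, 38.8 and 24.9 induced at 24 h, and 16.8, 23.3 and 23.1 against 38.9, 25.3 and 42.4 at 48 h. The groups did not overlap at either time, but the difference of 0.33 ± 0.134 at 24 h (adjusted p = 0.221) and of 0.34 ± 0.134 at 48 h (adjusted p = 0.106) missed the threshold. Without induced array 2 of 48 h it was called at 48 h, at 0.46 (adjusted p = 0.0403), and no other alternative called it. Further along the cluster, Hoxb6 differed by 0.31 ± 0.122 at 48 h (adjusted p = 0.111) and Hoxb9 by 0.03 ± 0.147 (95% interval -0.27 to 0.34). Of the 6 tested genes of cluster b, Hoxb6 among them only through the induced 48 h group, 3 were called higher at 48 h, beside 6.86% of all genes.

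Hoxd1, the paralogue 1 gene of cluster d, read between 9.26 and 27.5 in all 12 arrays of the 12 and 24 h groups. At 48 h it read 22.0, 25.6 and 20.8 uninduced and 70.3, 50.7 and 52.7 induced. The groups were apart only at 48 h, by 0.71 ± 0.120 (adjusted p = 2.33e-04), against 0.10 ± 0.120 at 12 h and 0.05 ± 0.120 at 24 h. Hoxc4, the lowest-numbered gene of cluster c, read 0.847, 1.34 and 2.23 in the uninduced arrays at 48 h and 28.5, 10.4 and 30.4 in the induced ones. In the other 12 arrays it read 0.906 to 7.27, under the level for testing. Its difference at 48 h was 0.70 ± 0.122, with 1 of the 3 induced arrays itself under that level. The fit called it, but since this group alone admitted Hoxc4 to the fit, the call is no support for the rise.

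**Figure D2:**
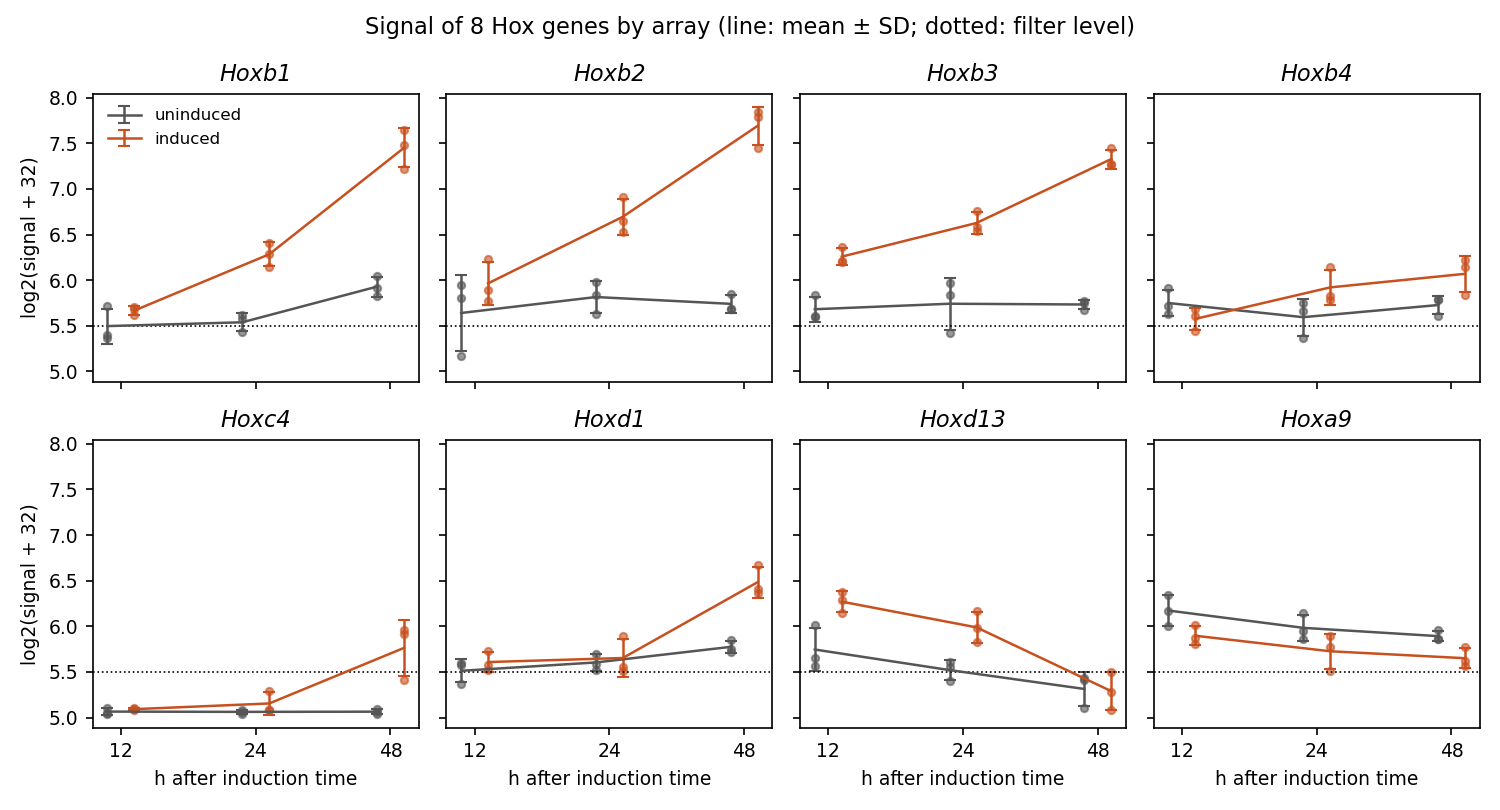
log2(signal + 32) of 8 Hox genes in each array at 12, 24 and 48 h (evenly spaced), uninduced in grey and induced in orange; points are arrays, lines join group means, bars are SD (n = 3) and the dotted line is the level for testing. Hoxb1, Hoxb2 and Hoxb3 part from their uninduced groups by 24 h, Hoxc4 and Hoxd1 at 48 h, and each induced Hoxd13 array lies above the uninduced ones at 12 and 24 h but not at 48 h.

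Of the 5 posterior genes tested, limma called 0 after induction, with 2, 2 and 0 at an unadjusted p under 0.05 at 12, 24 and 48 h. With 1.08%, 3.91% and 12.4% of all genes called, that count is near the share over all genes. Hoxd13, at the far end of cluster d from Hoxd1 and known for its role in digits, read 32.6, 18.5 and 15.4 uninduced and 46.3, 50.8 and 38.9 induced at 12 h. At 24 h it read 10.3, 16.6 and 15.0 against 31.0, 39.7 and 24.7, and at 48 h 2.41, 11.1 and 10.4 against 6.98, 13.4 and 1.83. Induced arrays were all above uninduced ones at 12 and 24 h, yet the differences of 0.52 ± 0.138 (adjusted p = 0.0751) and 0.47 ± 0.138 (adjusted p = 0.0621) missed the threshold, and at 48 h the groups overlapped with -0.02 ± 0.138. Without uninduced array 1 of 12 h the 12 h difference was called, at 0.66 (adjusted p = 0.0318), and no other alternative called it. The other Hoxd13 probe set was under the level for testing in every group, with means from 1.17 to 5.43. Hoxa9 read 26.0, 30.1 and 26.2 uninduced and 22.6, 15.4 and 17.0 induced at 48 h, all lower when induced, with a difference of -0.24 ± 0.120 (adjusted p = 0.226). Hoxa11, Hoxb9 and Hoxd9, the other posterior genes tested, differed by -0.20, 0.03 and 0.22 at 48 h and were not called.

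In cluster a limma called 0 of 5 tested genes in any of the 3 comparisons, with 1, 2 and 0 at an unadjusted p under 0.05 at 12, 24 and 48 h. Against 1.08%, 3.91% and 12.4% of all genes called, 0 of 5 does not set cluster a apart. Hoxa3, its one tested anterior gene, differed by 0.01, 0.00 and 0.03 at 12, 24 and 48 h, and its 95% interval at 48 h was -0.21 to 0.28, where that of Hoxb3 was 1.34 to 1.85. Hoxa7 read 45.0, 33.0 and 6.50 in the uninduced arrays at 24 h and 6.01, 6.75 and 4.90 in the induced ones, so the groups overlapped through 1 array. Its difference was -0.61 ± 0.190 (adjusted p = 0.0817), and without that uninduced array, replicate 3, it was called lower at -0.90 (adjusted p = 0.00191). No alternative that kept this array called Hoxa7. Hoxa5 differed by 0.15 ± 0.118 at 48 h. Its probe set is of a type that can match other transcripts and read 51.7 to 63.0 as group means, while the other Hoxa5 probe set read 3.45 to 6.66.

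Of the remaining central genes, Hoxc6, Hoxc8 and Hoxd8 differed by -0.01, 0.01 and 0.05 at 48 h, with 95% intervals of -0.34 to 0.33, -0.22 to 0.24 and -0.18 to 0.28. At 12 h Hoxc8 differed by 0.22 ± 0.111 with no overlap between groups (adjusted p = 0.466). Among the 12 tested genes that no induction comparison and no uninduced course called, differences between induced and uninduced arrays ran from -0.61 (Hoxa7 at 24 h) to 0.34 (Hoxb4 at 48 h).

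In uninduced embryoid bodies few Hox genes changed from 12 to 48 h. The limma fit called 1 of the 18 higher and 1 lower, where 33.6% of all genes were called, 18.6% higher and 15.0% lower. Hoxb1 rose by 0.43 ± 0.122 (adjusted p = 0.00846), its 3 arrays at 48 h lying above all 3 at 12 h. Hoxd13 fell by 0.43 on the log2 scale (SE 0.138, adjusted p = 0.0190), and that call was lost without uninduced array 1 of 12 h or uninduced array 1 of 48 h, with an adjusted p of up to 0.134. Hoxb2 differed by 0.10 (95% interval -0.25 to 0.45) and Hoxb3 by 0.05 (-0.21 to 0.31). Hoxd1 was higher in every 48 h array, at 0.26 ± 0.120 (adjusted p = 0.101). From 12 to 24 h 0 of the 18 were called (limma; 1 at an unadjusted p under 0.05), with 4.02% of all genes called, and from 24 to 48 h 1 was, Hoxb1 at 0.39, with 24.6%.

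The effect of induction itself differed between times for some of these genes. Between 12 and 48 h it grew for Hoxb1, Hoxb2, Hoxb3 and Hoxd1 by limma's test of the difference, 4 of the 18, or 5 with Hoxc4, whose growth the filter fixed. Of all genes 5.47% were called in that test. Between 24 and 48 h it grew for Hoxb1, Hoxb2, Hoxb3 and Hoxd1, 4 of the 18, with 3.11% of all genes called. Between 12 and 24 h limma called 0 of the 18, with 5 at an unadjusted p under 0.05 and 0.105% of all genes called.

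In induced embryoid bodies the same interval of 12 to 48 h gave 6 called higher and 3 lower. Of all genes 41.7% were called, 22.8% higher and 18.9% lower. The 6 include Hoxc4, whose rise the filter fixed. Those higher were Hoxb1 at 1.78, Hoxb2 at 1.73, Hoxb3 at 1.07, Hoxd1 at 0.88, Hoxc4 at 0.67 and Hoxb4 at 0.49 (adjusted p = 0.00484). Those lower were Hoxd13 at -0.98, Hoxa11 at -0.37 and Hoxc8 at -0.31. By position, 4 of the 5 anterior genes were called higher and 2 of the 5 posterior genes lower. Those 2, Hoxd13 and Hoxa11, also differed by -0.43 and -0.21 in the uninduced course. Limma did not call a change of the induction effect between 12 and 48 h for either (adjusted p = 0.118 and 0.682).

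The steps within that course differed by gene. From 12 to 24 h Hoxb1 rose by 0.62 ± 0.122 and Hoxb2 by 0.73 ± 0.170, with 13.9% of all genes called; Hoxb3 differed by 0.37 ± 0.125 (adjusted p = 0.0517). From 24 to 48 h, with 25.9% of all genes called, Hoxb1 rose by 1.17, Hoxb2 by 1.00, Hoxb3 by 0.70, Hoxd1 by 0.83 and Hoxc4 by 0.61, while Hoxd13 fell by 0.70 on the log2 scale. Hoxd1 had differed by 0.04 ± 0.120 and Hoxc4 by 0.06 ± 0.122 in the earlier step. Comparisons within induced arrays share arrays with those against uninduced arrays and are not separate evidence, and the rises of Hoxc4 in them were fixed by the filter.

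**Figure D3:**
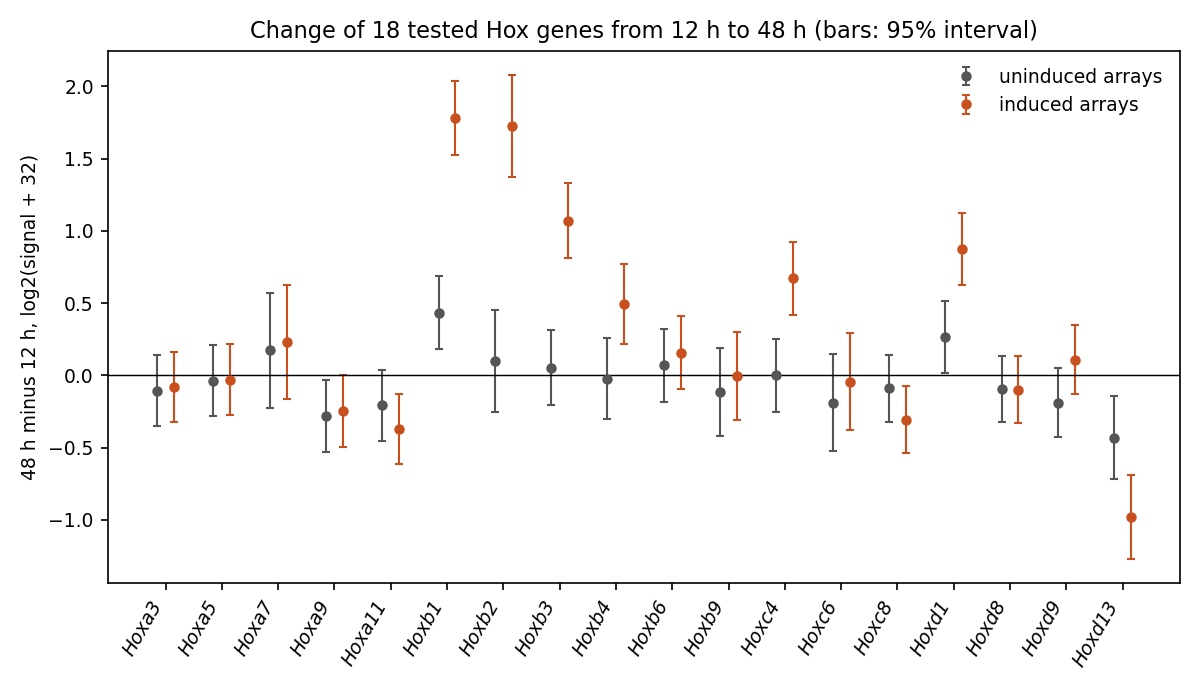
Change of log2(signal + 32) from 12 h to 48 h for the 18 tested Hox genes in uninduced (grey) and induced (orange) arrays; bars are 95% intervals. Hoxb1 changed by 0.43 in uninduced and 1.78 in induced arrays, Hoxb2 by 0.10 and 1.73, and Hoxd13 by -0.43 and -0.98.

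Genes that work with Hox proteins or act on the clusters were taken from lists. Of the TALE homeodomain cofactors, which bind DNA together with Hox proteins, 8 of 9 were tested. None was called at 12 or 24 h by limma (0 and 3 at an unadjusted p under 0.05), and 2 were called higher at 48 h, beside 6.86% of all genes. Meis2 read 73.2 ± 11.0 (SD, n = 3) uninduced and 247 ± 39.9 induced at 48 h, a rise of 1.40 ± 0.129 (adjusted p = 7.84e-08), and Pbx3 rose by 0.36 ± 0.0745 (adjusted p = 0.00179). In the uninduced course 5 of the 8 rose, Pbx3 by 1.18, where 18.6% of all genes did.

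Among the signals and factors that act on Hox clusters, 8 were tested, and Cdx1 and Cdx4 lay under the level in every group. Wnt5a, a ligand of non-canonical Wnt signalling, rose by 1.68, 2.03 and 1.81 at 12, 24 and 48 h. Cdx2, a homeodomain regulator of central and posterior Hox genes, rose at 48 h by 0.81 ± 0.149 (adjusted p = 5.68e-04), from 34.6 ± 4.43 to 87.0 ± 30.7, and Wnt3 by 0.68 ± 0.133. Fgf4 fell at 24 and 48 h, by 0.44 and 0.34 on the log2 scale. The counts were 1 higher at 12 h, 1 higher and 1 lower at 24 h, and 3 higher and 1 lower at 48 h, beside 1.08%, 3.91% and 12.4% of all genes called.

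Of 15 genes of retinoic acid synthesis, breakdown, binding and reception, 12 were tested. Cyp26a1, which degrades retinoic acid, rose by 1.71 ± 0.157 at 24 h and by 0.81 ± 0.157 at 48 h, on top of a rise of 3.63 in the uninduced course. Crabp1, a retinoic acid binding protein, rose by 1.07 ± 0.155 at 48 h, and Aldh1a2, which makes retinoic acid, by 0.67 ± 0.189, from 1.71 ± 0.0828 to 23.1 ± 15.7. Only the induced 24 and 48 h groups admitted Aldh1a2 to the fit, so its rise, counted below, is a description. Dhrs3 fell by 0.62 on the log2 scale. The counts were 0, 1 and 3 higher and 0, 0 and 2 lower at 12, 24 and 48 h, with 2 of the 12 at an unadjusted p under 0.05 at 12 h, beside the same shares of all genes. Rarb, a receptor gene that retinoic acid induces in many cells, differed by 0.01 ± 0.130 at 48 h.

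Of 19 chromatin regulators of the Hox clusters, Polycomb and Trithorax group genes in the main, 18 were tested. Phc2, a Polycomb subunit, rose by 1.04, 1.15 and 0.43 at 12, 24 and 48 h. It was the one called at 12 and 24 h, beside 1.08% and 3.91% of all genes. At an unadjusted p under 0.05 the limma fit held 2 and 3 of the 18 at those times. At 48 h 4 were higher and 3 lower, beside 6.86% and 5.56% of all genes. Kdm6b, which removes the repressive methyl mark of histone H3 that Polycomb sets, rose by 0.61 ± 0.150, Phc1 fell by 0.79 and Cbx7 by 0.49 on the log2 scale. Of the homeobox genes linked to Hox clusters or in the related ParaHox cluster, 2 of 5 were tested. Evx1, which lies beside the posterior end of cluster a, rose by 0.65 ± 0.153 at 24 h and 1.23 ± 0.153 at 48 h, and by 2.03 in the uninduced course. Evx2, beside cluster d, differed by 0.18 ± 0.147 at 48 h.

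**Figure D4:**
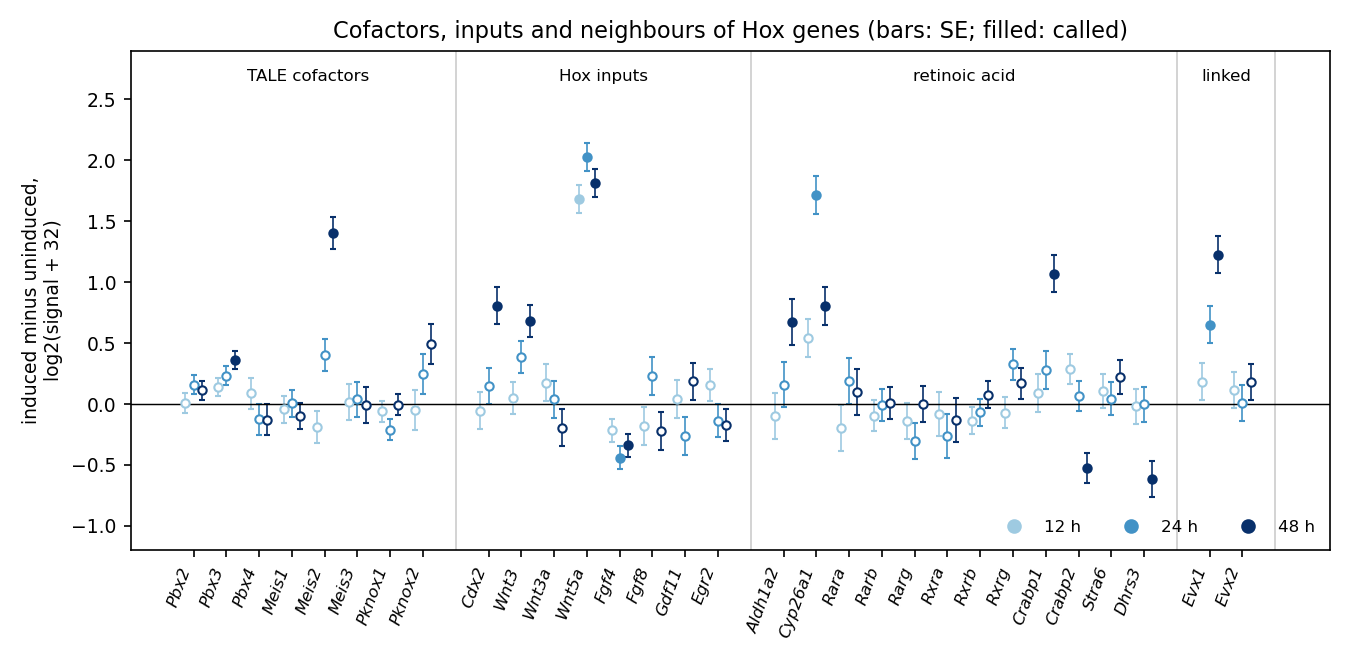
Induced minus uninduced log2(signal + 32) of TALE cofactors, Hox inputs, retinoic acid genes and the Hox-linked Evx genes at 12 h (light), 24 h (mid) and 48 h (dark blue); bars are SE and filled points are called. Wnt5a lies between 1.68 and 2.03 at all 3 times, while Meis2 (1.40), Crabp1 (1.07) and Cdx2 (0.81) are filled only at 48 h.

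Markers of cell types moved in the same comparisons. Of all tested genes 2.91% were called higher and 0.995% lower at 24 h, and 6.86% higher and 5.56% lower at 48 h. Early and presomitic mesoderm markers were called higher for 7 of 8 tested at 24 h and 6 of 8 at 48 h. The summed signal of the mesoderm markers was 588 to 971 in uninduced and 1882 to 2529 in induced arrays at 24 h, and 4836 to 5986 against 6613 to 8055 at 48 h. Foxc2, the ninth of the list, was under the level in every group. Pluripotency markers were called lower for 2 of 7 at 24 h and 5 of 7 at 48 h, 1 being higher, and summed to 8776 to 9263 uninduced and 5870 to 6794 induced at 48 h. Endothelial and blood markers had 5 of 9 called higher at 48 h, with sums of 296 to 340 against 652 to 737. In bulk RNA a change in the number of cells of a type and a change of RNA per cell cannot be told apart, and the part of these shifts in the Hox results was not tested.

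Neural markers, which matter because Hoxb1 and Hoxb2 are also hindbrain genes, summed to 562 to 648 in uninduced and 362 to 473 in induced arrays at 48 h. Of 7 tested, 1 was called higher and 1 lower at 48 h, and Sox1 and Olig2 were under the level for testing in every group. The higher one was Pax3, with means of 10.7 uninduced and 26.1 induced, and the lower one Sox3, with 247 and 81.9. Nes, not called, had 216 and 148, so the neural sum does not stand for the whole list. Beside the 48 h counts of the neural list and of the next lists, 6.86% of all genes were called higher and 5.56% lower. Feeder fibroblast markers summed to 721 to 957 against 871 to 1044, with 3 of 12 called higher. Extraembryonic endoderm markers summed to 1749 to 2121 against 1260 to 1377, with 3 of 8 higher and 2 lower, and Afp, Apoa1 and Ttr were under the level in every group. The 3 higher were Gata4, Gata6 and Sox7. The 2 lower were Foxa2, with means of 772 uninduced and 168 induced, and Sox17, with 597 and 317, so the sum does not stand for the whole list. The part of these lists in the Hox results was not tested.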

How the data were processed

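RNA of 18 samples in 6 groups was measured on single-channel Affymetrix arrays. The deposited values were linear signal intensity for 45101 probe sets; GCOS was used per the submitters' processing notes, and the authors' scaling is not otherwise given in the sources used here. Probe sets were named through GEO's platform annotation, with symbols updated by Entrez identifier to RefSeq (GRCm38.p6): 34945 had 1 gene (34741 by Entrez identifier), 932 had several, and 64 controls were left out.

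The intensity was taken as log2(signal + 32) without further normalization, since array medians differed by at most 0.0922 on that scale. Probe sets whose group mean reached the 40th percentile (13.3) in at least 1 group were kept (25881), and the brightest per gene was tested (14273 genes). Limma 3.58.1 in R 4.3.3 fitted 1 mean per group with 12 residual degrees of freedom and an intensity trend. P-values were 2-sided and adjusted by Benjamini-Hochberg over all 14273 genes, with calls under 0.05. The fit was tested on simulated data. Figures used Python 3.11.15 and matplotlib 3.10.9.

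The members, the lists of related genes and of markers, and the tests were chosen with earlier results of these data known. Arrays are given in full for Hox genes called after induction without overlap of the groups, and for those called in the uninduced course; other Hox genes were named to account for every member, and the arrays of Hoxb4, Hoxa7 and Hoxa9 were added after their values were seen. Of each list up to 4 called genes with the largest changes were named; Rarb and Evx2 were named after their values were seen. Alternatives were quantile normalization, no filter, a filter at the 60th percentile, an offset of 16, all kept probe sets of a gene averaged, tests per probe set, no or a robust trend, the 2 groups alone, replicate number as a block, and each array left out.

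Arrays of the same number within a time were checked for shared deviations from their group means. The correlations were 0.197, 0.137 and 0.442 at 24 h, 0.0100, 0.0723 and -0.0669 at 12 h, and -0.128, -0.0658 and 0.0834 at 48 h. The rule that each exceed 0.1 was met at 24 h only. The main fit used no pairing at any time, and replicate number entered only the alternative fits with a block. Arrays of unlike number reached 0.203 and 0.115 at 24 h between numbers 1 and 2, and only the arrays numbered 3 stood apart. Signal over background and the 3 arrays per group limit the precision.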

Additional observations from a re-analysis of the deposited data

Results flagged for a closer look

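The effect of induction differed between times for 4 Hox genes, by limma's test of the difference of effects. Between 12 and 48 h it grew by 1.35 ± 0.173 for Hoxb1 (adjusted p = 2.65e-05), 1.63 ± 0.241 for Hoxb2 (adjusted p = 1.57e-04) and 1.02 ± 0.176 for Hoxb3 (adjusted p = 8.18e-04). For Hoxd1 it grew by 0.61 ± 0.170 (adjusted p = 0.0353). Hoxc4 passed the threshold too, with 0.67 ± 0.173, but it was tested only because it was high in the induced 48 h group, so this value is a description.

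Between 24 and 48 h the effect grew by 0.78 for Hoxb1 (adjusted p = 0.0124), 1.07 for Hoxb2 (adjusted p = 0.0134), 0.71 for Hoxb3 (adjusted p = 0.0263) and 0.66 for Hoxd1 (adjusted p = 0.0335).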

How the results depend on the processing

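The calls of Hoxb1, Hoxb2 and Hoxb3 at 24 and 48 h and of Hoxd1 at 48 h kept their direction and side of the threshold in each alternative that tested them. The call of Hoxc4 at 48 h did so too. Only the induced 48 h group admitted Hoxc4 to the main fit, so this is no support for its rise. A filter at the 60th percentile left Hoxc4 untested. The 12 h count of 1 fell to 0 when all kept probe sets of a gene were averaged, where Hoxb3 differed by 0.20 (adjusted p = 0.555), and with the replicate block within time (adjusted p = 0.0524); over left-out arrays it ran from 0 to 1. Without uninduced array 1 at 12 h, Hoxd13 was called in place of Hoxb3. The cause was not tested. The 24 h count was 3, and 4 with uninduced array 3, or both arrays numbered 3 (a setting added after seeing the data), left out, Hoxa7 being added. The 48 h count of 5 became 7 without a filter, adding Hoxb5 (0.36) and Hoxd3 (0.32), both dim in every group, 6 without induced array 2 (Hoxb4 added) and 4 at the stricter filter. The uninduced count of 2 ran from 1 to 2 over left-out arrays and was 3 after quantile normalization, where Hoxa9 was added at -0.32; without uninduced array 1 of 12 h Hoxa9 (-0.37) took the place of Hoxd13. With the replicate block over all arrays the counts were 1, 3, 5 and 2, and the replicate block within time left 3 at 24 h and 5 at 48 h; the block changed no call other than that of Hoxb3 at 12 h. Signal near background limits what can be said of the 15 untested members.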

Other observations

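Several probe sets of the Hox clusters belonged to no single Hox gene. The brighter probe set shared by Hoxd3 and Hoxd4 read 26.4 ± 6.06 (SD, n = 3) in uninduced and 12.0 ± 6.73 in induced arrays at 24 h, a difference of -0.41 ± 0.184 that limma did not call (adjusted p = 0.349). The probe set shared by Hoxb7 and Hoxb8 read 8.55 to 12.4 as group means and was under the level for testing. Among antisense transcripts, Hoxb5os differed by 0.20 ± 0.141 at 48 h (adjusted p = 0.501), and the probe sets of Hoxd3os1 and Hoxa11os were under the level in every group.

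Hoxb5 and Hoxc5, both under the level in every group, read 2.39 ± 1.13 and 3.17 ± 3.51 in uninduced arrays at 48 h and 12.2 ± 4.77 and 12.3 ± 2.34 in induced ones. Further Hoxc5 probe sets had means of 2.89 and 1.93 uninduced and 3.91 and 1.87 induced. Other untested members went both ways at 48 h, such as Hoxd3 from 2.82 to 11.4 and Hoxb7 from 7.97 to 5.95. These values are examples from dim genes and were not tested.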
